A study of Mus musculus with 18 samples.

Results

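Replication-dependent histone genes encode the bulk of the linker histone H1 and of the core histones H2A, H2B, H3 and H4. They were taken here as the protein-coding genes of the mm9 annotation whose symbols start with Hist1, Hist2, Hist3 or Hist4, which gave 67 genes of 22350 protein-coding genes on the autosomes and X. There were 6 genes for H1, 19 for H2A, 18 for H2B, 11 for H3 and 13 for H4. The Hist1 set held 55 genes on chromosome 13, of which Hist1h2al stands 27272103 bp from the nearest other one. The Hist2 set held 9 genes on chromosome 3, Hist3 held 2 on chromosome 11, and Hist4h4 was the single Hist4 gene, on chromosome 6. Many members are neighbours: the windows of 5 kb each side of their starts merge into 19 stretches, so a peak often belongs to several members and the members are not independent of each other.

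Peaks of RAD21, part of the ring-shaped cohesin complex, and of NIPBL, which loads cohesin on DNA, were mapped by ChIP-seq in mouse pro-B cells transformed with v-Abl. Every library came from cells labelled JH-del, dCas9 expressing, Emu-Bcl2 and RAG2 deficient, kept for 4 days in 3 uM STI-571, which inhibits the Abl kinase and halts the cycling of such lines. The dCas9 control cells carried nothing further (2 RAD21 and 2 NIPBL libraries), and the block cells also expressed the Sg1-sgRNA, a guide RNA (2 and 2). In a second RAD21 experiment, wild type cells (3 libraries) had the genotype label of the dCas9 control, and deleted cells (3) added Ig2b-del/del. The labels name dCas9, the guide and the deletion but neither their promoters nor clones, and they do not say that replicates were separate cultures, so a p-value below measures only the spread between these libraries.

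Histone genes of this kind are switched on at the entry to S phase and make messages without a poly(A) tail, whose end is formed at a conserved stem-loop bound by SLBP. NPAT, a target of cyclin E and CDK2, activates them in nuclear bodies that also hold the processing factors. Most mouse members lie in one large cluster with H2A and H2B genes back to back, sharing the short stretch between their starts. Their coding parts are short and usually lack introns, though the annotation gives Hist1h2be, Hist2h2bb and Hist1h2bc far longer spans.

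The sequences on which the members differ or agree are given first, all from the mm9 (NCBIM37) genome. The stretch between the starts of Hist1h2ae and Hist1h2bg (chr13:23663090-23663264, plus strand) is shown because this back-to-back pair had the largest NIPBL over RAD21 difference in block cells. The 250 bases before the start of Hist1h3d (chr13:23667382-23667631, plus strand), Hist1h4c (chr13:23790324-23790573, minus strand), Hist1h1b (chr13:21872495-21872744, minus strand) and Hist1h2aa (chr13:24026081-24026330, plus strand) stand for an H3 gene in the same stretch, the H4 gene with the least NIPBL, the H1 gene with the strongest NIPBL peak nearby, and a testis gene with no RAD21 peak. Each is written 5′ to 3′ on the strand given, and capitals mark the octamer ATTTGCAT, the TATA box (TATAAA), the letters of the CCAAT box and the E2F-type TTTCCCGC on either strand.
Hist1h2ae-Hist1h2bg: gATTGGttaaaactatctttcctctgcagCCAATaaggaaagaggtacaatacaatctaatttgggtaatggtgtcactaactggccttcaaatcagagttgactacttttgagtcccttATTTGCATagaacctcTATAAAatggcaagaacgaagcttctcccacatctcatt
Hist1h3d: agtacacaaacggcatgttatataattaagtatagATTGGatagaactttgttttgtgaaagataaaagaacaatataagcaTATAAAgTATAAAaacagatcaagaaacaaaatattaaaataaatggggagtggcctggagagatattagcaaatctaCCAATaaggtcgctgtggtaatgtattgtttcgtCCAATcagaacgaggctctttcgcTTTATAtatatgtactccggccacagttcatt
Hist1h4c: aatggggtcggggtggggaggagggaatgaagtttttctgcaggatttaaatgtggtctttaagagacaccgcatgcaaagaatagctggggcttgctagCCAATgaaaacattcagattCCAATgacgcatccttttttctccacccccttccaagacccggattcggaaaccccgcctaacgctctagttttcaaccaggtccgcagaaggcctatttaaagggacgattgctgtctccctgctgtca
Hist1h1b: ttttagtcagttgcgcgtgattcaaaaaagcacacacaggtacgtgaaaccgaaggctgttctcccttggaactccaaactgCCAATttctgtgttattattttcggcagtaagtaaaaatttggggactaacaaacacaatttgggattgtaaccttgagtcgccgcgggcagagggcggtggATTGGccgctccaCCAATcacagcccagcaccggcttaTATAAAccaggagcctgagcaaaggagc
Hist1h2aa: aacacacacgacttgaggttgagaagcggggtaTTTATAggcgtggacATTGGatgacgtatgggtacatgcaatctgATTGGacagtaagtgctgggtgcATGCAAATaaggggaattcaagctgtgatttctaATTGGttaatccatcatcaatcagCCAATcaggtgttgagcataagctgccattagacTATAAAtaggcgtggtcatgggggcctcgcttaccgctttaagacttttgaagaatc

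The octamer, the binding letters of OCT1 and OCT2, lay 48 to 55 bp before the Hist1h2bg start, and the TATA box lay 34 to 39 bp before it. Over the window from 250 bp before to 50 bp after the start, the octamer was found in 15 of 67 members, 22.4%, and in 1.73% of all 22350 promoters, with both strands searched. Those 15 were 7 of the 19 H2A genes and 8 of the 18 H2B genes. TATAAA was in 38 members, 56.7%, against 13.4% of all promoters. CCAAT was in 57 members, 85.1%, against 37.9%, and it stood in all 6 H1, all 19 H2A and all 18 H2B genes but in only 4 of the 13 H4 genes. TTTCCCGC was in 3 members, all for H4, which is 4.48% against 1.33%, and TTTGGCGC was in 0 members against 0.680%. Matches of different motifs may overlap and each was counted, and a match is a description of the sequence, not a site shown to be used.

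The stem-loop that ends histone messages was searched as 16 bases within 150 bp after the coding end and was found in 61 of 67 members, in 6 forms. The example of each form is printed with 5 bases each side and the 16 bases in capitals, in the order of their frequency: Hist2h2aa2 (chr3:96043702-96043727, minus strand), Hist2h2ab (chr3:96024251-96024276, plus), Hist4h4 (chr6:136752514-136752539, minus), Hist2h4 (chr3:96066857-96066882, minus), Hist1h4j (chr13:21827301-21827326, plus) and Hist2h2ac (chr3:96024336-96024361, minus).
Hist2h2aa2 stem-loop: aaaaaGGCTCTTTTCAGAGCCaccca
Hist2h2ab stem-loop: aaaaaGGCTCTTTTAAGAGCCaccaa
Hist4h4 stem-loop: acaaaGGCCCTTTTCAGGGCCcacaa
Hist2h4 stem-loop: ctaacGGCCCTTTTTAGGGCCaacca
Hist1h4j stem-loop: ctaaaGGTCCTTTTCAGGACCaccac
Hist2h2ac stem-loop: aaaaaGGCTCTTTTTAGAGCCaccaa
The first form was found in 39 members, the second in 9, the third in 8, the fourth in 2, the fifth in 2 and the last in 1. Hist1h2al, Hist1h2an, Hist1h3g, Hist1h4a, Hist2h2bb and Hist2h2be had no match in that window. The stem-loop lay a median of 456 bp after the gene start. It was inside a NIPBL peak for 35 and 35 of 61 members in the control libraries and for 51 and 49 in the block libraries. It was inside a RAD21 peak for 1 and 20 members in the control libraries, 6 and 16 in block, 20, 18 and 15 in Ig2b wild type, and 28, 40 and 22 in Ig2b deleted.

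Lists of called peaks were the only measurement, and read depth is unknown. RAD21 lists held 44729 to 82688 peaks and NIPBL lists 63052 to 123391. The RAD21 lists of dCas9 control 1 and block 1 stand apart from those of control 2 and block 2 in the style of their peak names and in length, 15.9 and 23.7 Mb covered against 34.4 and 31.5 Mb. They stand apart further at histone genes, so each dCas9 RAD21 value is given by library. Of markers, 8 of 8 pro-B genes had a NIPBL peak in all 4 NIPBL libraries and a RAD21 peak in all 3 Ig2b wild type libraries, against 1 and 1 of 4 T cell, 2 and 1 of 4 myeloid and 1 and 1 of 3 erythroid genes. Over all genes these shares were 51.7% and 27.3%. Peaks near a gene are not its expression, and no RNA was measured.

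A NIPBL peak lay within 5 kb of the start of every replication-dependent histone gene, though not always on that gene. The annotated start of Hist1h2be lies 35578 bp from its stem-loop, which was inside a NIPBL peak only in block 1. All 67 members had a NIPBL peak within 5 kb of the start in both control libraries (56.5% of all protein-coding genes), in both block libraries (57.8%) and in all 4 (51.7%). Within 5 kb the peaks covered a mean of 1727 and 1657 bp per member in the control libraries, against 492 and 415 bp for other genes, and of 1971 and 2090 bp in the block libraries, against 526 and 590 bp. The ratio of members to other genes was 3.51, 4.00, 3.75 and 3.54 in these libraries. No NIPBL library stood apart in that ratio.

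The peaks at histone genes were also among the strongest of each NIPBL list by fold, the authors' enrichment value, which is used here only to rank peaks within a list. The strongest peak near a member had a median fold of 12.6, 10.8, 15.6 and 11.7 in control 1, control 2, block 1 and block 2. That is percentile 99.9, 99.8, 99.7 and 99.8 of all peaks in the list, while the strongest peaks near other genes lay at percentile 90.1, 87.8, 88.1 and 92.1. When all genes are ranked by their strongest NIPBL peak, the top 224 (1.00% of genes) included 49, 47, 37 and 36 histone genes. The top 1118 genes included 59, 59, 59 and 61 of the 67. In the RAD21 lists the top 224 held 0 members in each of the 10 libraries. The median fold of the strongest RAD21 peak near a member was 4.13 and 4.42 in the control libraries, 3.57 and 4.28 in block, 3.94, 3.92 and 3.96 in Ig2b wild type and 4.20, 4.28 and 4.51 in Ig2b deleted. These medians lay between percentile 41.9 in block 1 and 64.8 in Ig2b deleted 2, in the middle of the lists. The strongest RAD21 peaks near other genes lay at percentile 57.3 to 63.8, above the members' median in 9 of the 10 lists. These medians take in only genes with a peak, which were a larger share of members than of other genes in the Ig2b lists. Ranked over all 22350 genes, members had a median rank of 4896 to 5997 in the Ig2b RAD21 lists. In the dCas9 RAD21 lists it was 8051 to 9755, where 8051 in control 1 is the rank shared by genes without a peak.

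**Figure D1:**
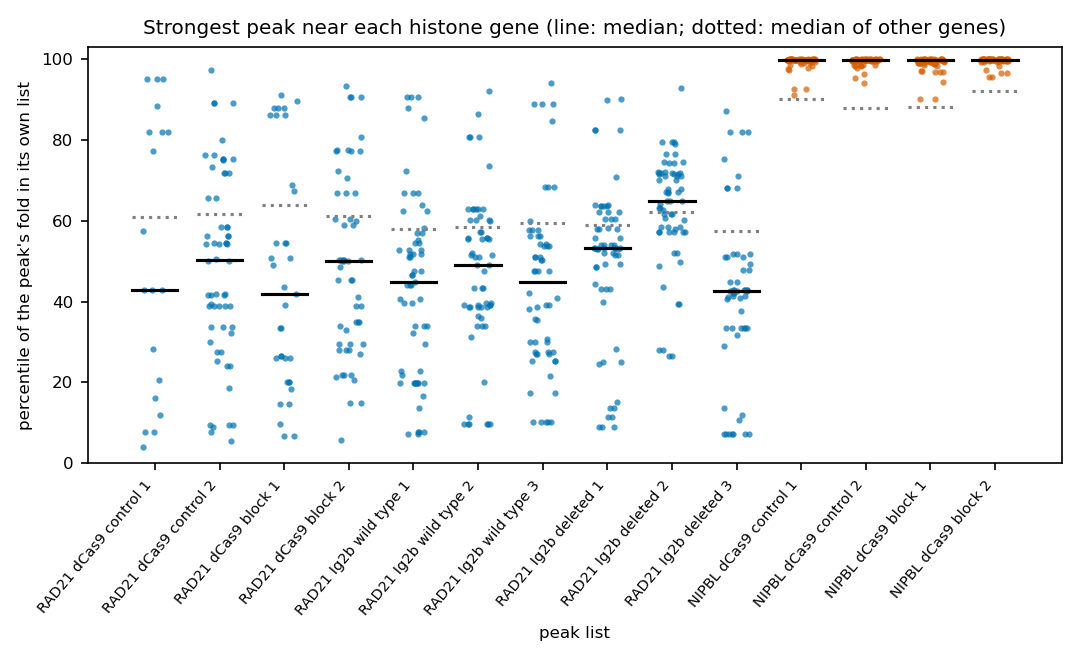
Each point is a histone gene's strongest peak within 5 kb, placed by its fold percentile in its own list (y axis, %), for the 14 lists (x axis); black lines are member medians and dotted lines medians of other genes. Nearly all members lie above percentile 95 in the 4 NIPBL lists, and they spread over most of the range in the RAD21 lists.

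The NIPBL peaks sat on the genes themselves, just after their starts. At 250 bp after the start, 63 of 67 members, 94.0%, were covered by a peak in each of the 4 NIPBL libraries, against 34.5%, 29.9%, 36.8% and 38.3% of other genes. The start itself was inside a NIPBL peak for 53 and 48 members in the control libraries (40.1% and 37.3% of all genes) and for 54 and 54 in the block libraries (41.0% and 42.5%). Over the first 400 bp after the start the peaks covered 89.6%, 88.2%, 91.9% and 91.1% of the members' sequence in control 1, control 2, block 1 and block 2. Over the 400 bp before the start they covered 50.8%, 46.1%, 59.6% and 60.4%. Other genes had 35.8% after and 25.4% before in control 1, where 45 members were covered more after than before and 2 the other way. The middle between back-to-back H2A and H2B starts, which lie 168 to 306 bp apart in 12 pairs, was inside a peak for 7 and 6 pairs in the control libraries and for 10 and 10 in the block libraries.

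At the starts and 250 bp after them, RAD21 coverage was lower than that of NIPBL and varied between libraries. In the Ig2b lists it was far above that of other genes. The start lay inside a RAD21 peak for 0 members in control 1 (3.26% of all genes) and for 23 in control 2 (25.6%). Sampled every 250 bp, the highest coverage near the starts was 4.48% of members in control 1, at 750 bp before the start, and 40.3% in control 2, at 250 bp after it, where other genes had 2.42% and 15.6%. In block it was 8.96% and 28.4%, against 3.47% and 22.9% of other genes at the same positions. In Ig2b wild type it was 31.3%, 34.3% and 22.4%, against 2.07%, 3.96% and 1.46%, and in Ig2b deleted 49.3%, 64.2% and 29.9%, against 5.79%, 8.01% and 2.30%. No RAD21 library reached the 94.0% of the NIPBL libraries. At 1000 bp after the start the order was not the same. RAD21 covered 31.3% of members there in control 2, 20.9% to 44.8% in the Ig2b lists and 23.9% in block 2. It covered 0% in control 1 and 1.49% in block 1. NIPBL covered 14.9% and 16.4% in control and 17.9% and 22.4% in block. Other genes had at most 7.92% at that position in any list.

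**Figure D2:**
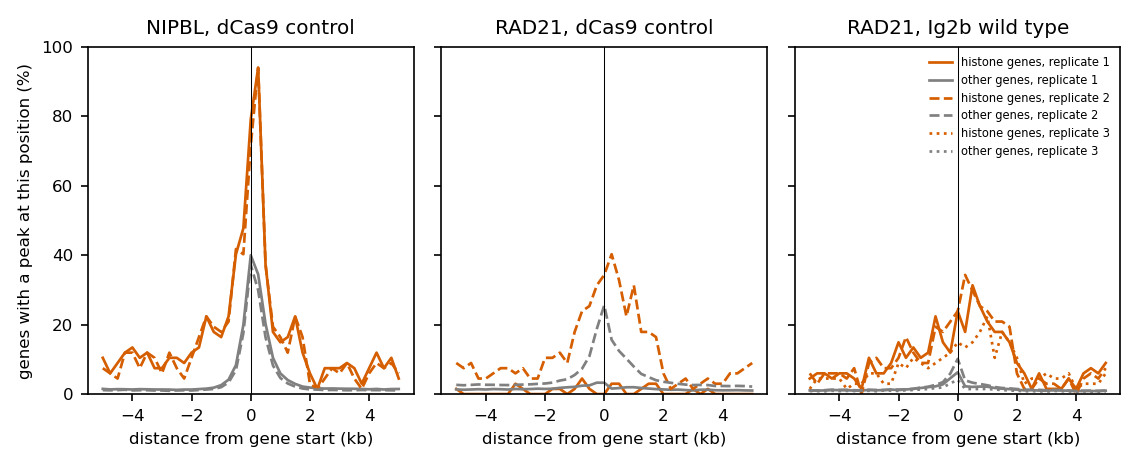
Share of genes with a called peak at each position (y axis, %) by distance from the gene start (x axis, kb, positive into the gene), for the 67 histone genes and for other genes, one line per library. NIPBL control lines peak at 94.0% for members 250 bp after the start, RAD21 control 1 stays under 5%, and RAD21 control 2 reaches 40.3%.

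The number of members with a RAD21 peak within 5 kb depended on the library. It was 19 in dCas9 control 1, where 36.0% of all genes had one, and 60 in control 2 (54.7%). It was 35 in block 1 (45.3%) and 55 in block 2 (53.4%). In the Ig2b experiment it was 61, 61 and 58 in wild type (36.0%, 40.8% and 31.1%) and 62, 64 and 55 in deleted cells (42.5%, 49.5% and 33.7%). The 8 libraries other than control 1 and block 1 therefore had peaks at 55 to 64 of the 67 histone genes, well above the share of all genes, while control 1 was below it. Counted over all libraries of a group together, a peak was always present at 19 members in control (34.3%), 35 in block (41.3%), 56 in Ig2b wild type (27.3%) and 53 in Ig2b deleted (32.1%).

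Mean RAD21 coverage per member was 89.2 bp in control 1 and 1194 bp in control 2, which is 0.571 and 2.30 times that of other genes. In block 1 and block 2 it was 199 and 870 bp, or 0.808 and 1.84 times. In Ig2b wild type it was 986, 1074 and 767 bp, and in Ig2b deleted 1444, 2365 and 839 bp. All 6 Ig2b lists had 5.71 to 6.66 times as much at members as at other genes, higher than the 3.51 to 4.00 of NIPBL. The Ig2b lists name no control library, unlike the dCas9 lists, and the part of this difference in the ratios was not tested. RAD21 peaks of 2 kb or more were the widest peak at 10 members in deleted 1 and 22 in deleted 2, and at 3 or fewer in each other RAD21 list. Among members with a peak that is 16.1% and 34.4% in deleted 1 and deleted 2, against 0.794% and 1.59% of other genes with a peak.

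**Figure D3:**
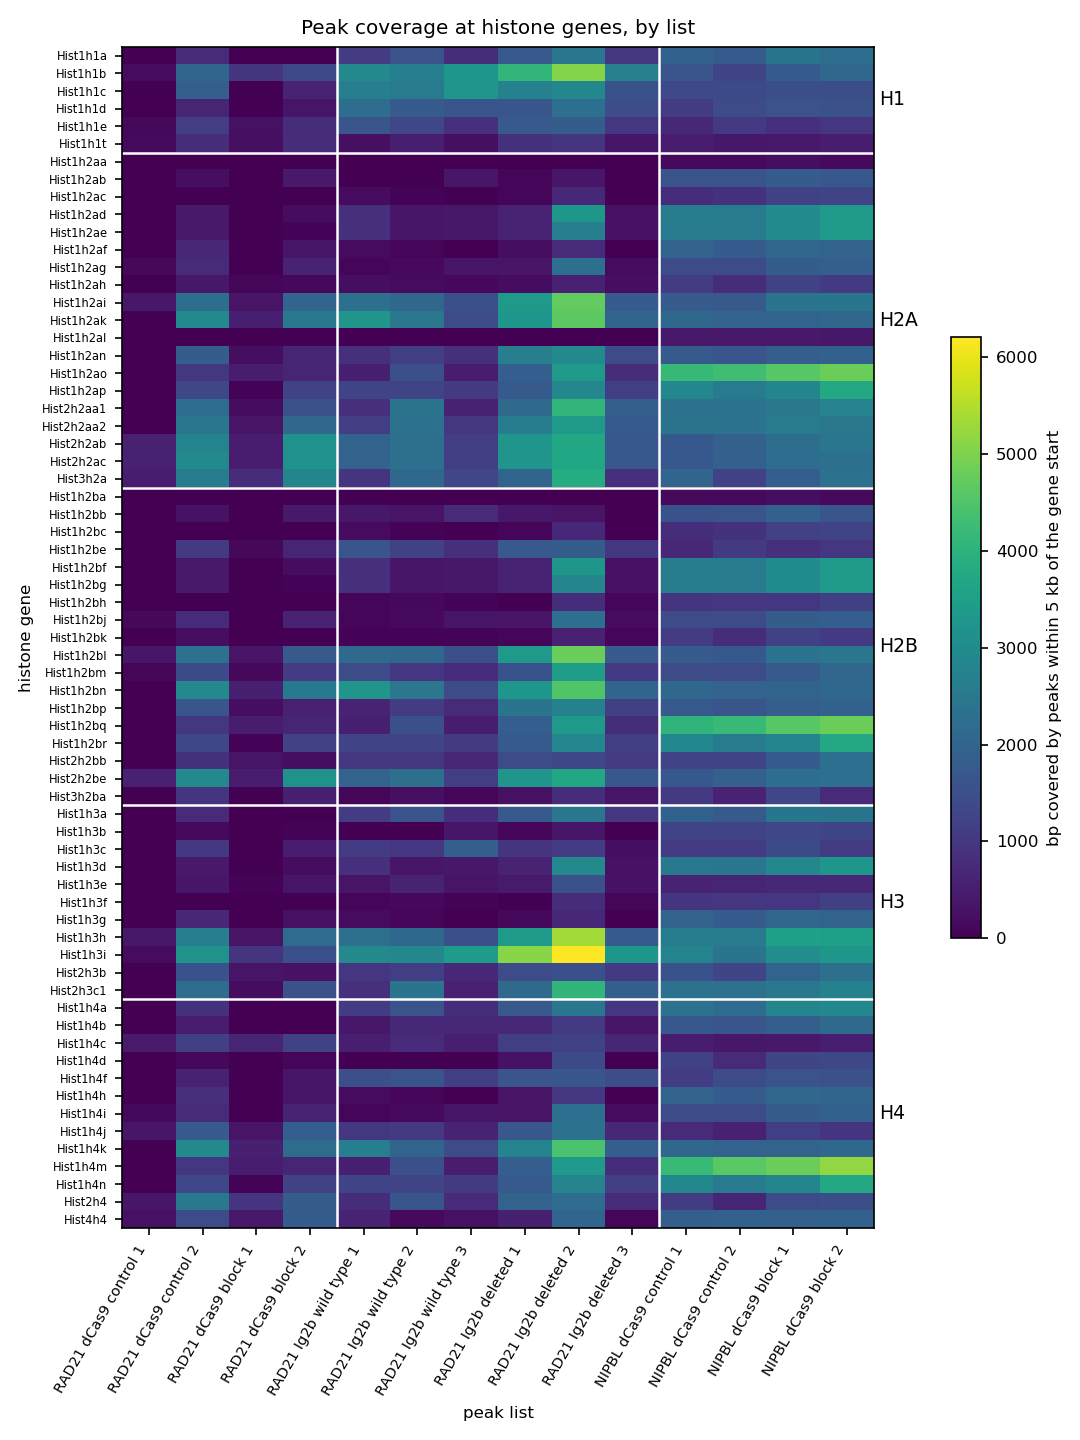
Base pairs covered by called peaks within 5 kb of the start (colour, bp) for each of the 67 histone genes (rows, by class H1 to H4) in the 14 lists (columns; white lines part the RAD21 dCas9, RAD21 Ig2b and NIPBL lists). The RAD21 control 1 and block 1 columns are near 0 for most genes, and Hist1h1b is brighter in all 6 Ig2b RAD21 columns than in the NIPBL columns.

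A RAD21 peak in all 10 libraries was found at 16 members, 23.9% of them, which is near the share over all genes, 23.4%. They were Hist3h2a, Hist1h2bl, Hist1h2ai, Hist1h3h, Hist1h2bm, Hist1h4j, Hist1h1b, Hist1h3i, Hist1h1e, Hist1h1t, Hist1h4c, Hist2h2ab, Hist2h2ac, Hist2h2be, Hist2h4 and Hist4h4. Another 3 members had none in any RAD21 library (37.6% of all genes): Hist1h2aa and Hist1h2ba, a back-to-back pair known for expression in the testis, and the isolated Hist1h2al. A NIPBL peak in both controls with no RAD21 peak in either was found at 7 members (10.0%), the 3 just named and Hist1h2bh, Hist1h3f, Hist1h2ac and Hist1h2bc. The same in block cells held for 12 members (9.91%). A RAD21 peak in both controls with no NIPBL peak in either was found at 0 members (3.19%).

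Among the linker histone genes, Hist1h1a had the most NIPBL coverage in control cells, with 1923 and 1769 bp in control and 2413 and 2234 bp in block. Its RAD21 coverage was 0 and 732 bp in control, 0 and 0 bp in block, 1102, 1579 and 818 bp in Ig2b wild type and 1738, 2425 and 979 bp in Ig2b deleted. Its NIPBL values lay above all 4 dCas9 RAD21 values and overlapped those of the Ig2b lists. Hist1h1b, whose promoter is printed above, had RAD21 coverage of 188 and 2033 bp in control, 923 and 1378 bp in block, 2918, 2690 and 3263 bp in Ig2b wild type and 4089, 5066 and 2703 bp in deleted cells, with NIPBL at 1636, 1274, 1812 and 2056 bp. All 6 Ig2b RAD21 values were above all 4 NIPBL values there. Hist1h1t, a linker histone of the testis, had the least NIPBL of the class, with 479, 395, 418 and 481 bp, from a peak that lies on its neighbour Hist1h4c. H1 was the class in which mean RAD21 coverage in Ig2b wild type, 1740 bp, was above mean NIPBL coverage in control, 1212 bp. For H2A these means were 890 and 1832 bp, for H2B 795 and 1646 bp, for H3 1002 and 1739 bp and for H4 804 and 1733 bp, so the order was the opposite in all 4 core classes. They come from separately called lists and were not tested.

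Among H2A and H2B genes the extremes were both back-to-back pairs. Hist1h2ao and Hist1h2bq had the most NIPBL, with 4161, 4297, 4604 and 4811 bp at Hist1h2ao, where RAD21 covered 0, 1003, 462 and 645 bp in dCas9 control 1, control 2, block 1 and block 2. Reads there cannot be placed with certainty: all of the 31-base words of Hist1h2ao, Hist1h2bq, Hist1h2ap and Hist1h2br recur elsewhere in the genome, as do over 90% of those of Hist1h4m and Hist1h4n. Over the 67 members the median repeated share was 25.2%, and 11 members were above 50%. Hist1h2aa and Hist1h2ba had the least, with NIPBL peaks covering 162, 149, 237 and 168 bp, the strongest of them on Hist1h2ba, and RAD21 at 0 in all 10 lists. The Hist1h2aa promoter holds an octamer, TATA boxes and CCAAT boxes, as printed above. The printed stretch between Hist1h2ae and Hist1h2bg, another pair with NIPBL peaks, holds the same kinds of motif at other distances. The octamer lay 142 to 149 bp before the Hist1h2aa start and 48 to 55 bp before that of Hist1h2bg. Hist1h2al, the isolated H2A gene, had a single NIPBL peak of 433, 416, 425 and 406 bp on the gene and no RAD21.

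Among H3 genes, Hist1h3h had the most NIPBL, 2622, 2573, 3544 and 3534 bp, and it was also rich in RAD21 with 393 and 2643 bp in control, 326 and 2172 bp in block and 1523 to 5340 bp in the Ig2b lists. It shares its strongest RAD21 peak with Hist1h2ai and Hist1h2bl, of fold 10.1 and 12.5 in the control libraries. Hist1h3e had the least NIPBL of the class, 622, 639, 720 and 718 bp, with RAD21 at 0, 364, 51 and 359 bp in the dCas9 lists. NIPBL lay above the dCas9 RAD21 values there without overlap.

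Among H4 genes, Hist1h4m (mostly repeated sequence, as said) had the most NIPBL, 4210, 4612, 4805 and 5193 bp. Hist1h4c (chr13:23789929-23790323) had the least, 479, 395, 418 and 532 bp, and stood out for RAD21. Its covered length was 444 and 1186 bp in control, 644 and 1203 bp in block, 533, 747 and 527 bp in Ig2b wild type and 1154, 1226 and 676 bp in Ig2b deleted. In block cells it was the only member at which both RAD21 libraries exceeded both NIPBL libraries. The RAD21 peak there had the highest mean fold near any member over the control libraries, with 8.38 in control 1, where the peak shared by Hist1h3h was stronger, and 16.4 in control 2. Its middle lay at -2949 and -2948 bp from the Hist1h4c start, upstream. In the other 8 RAD21 lists that peak had folds of 7.37 to 14.2. The NIPBL peak, of fold 9.58 and 9.77 in control, had its middle 147 and 154 bp after the start, so the strongest peaks of both proteins lay at different places.

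Hist1h4j (chr13:21826903-21827329) also had a RAD21 peak in every list. Its folds were 6.56 and 9.0 in control, 8.11 and 9.21 in block and 6.27 to 10.4 in the Ig2b lists. Among RAD21 sites, which are peaks of the 10 RAD21 lists merged where they overlap, 11 sites found in all 10 libraries lay within 5 kb of a member. The site by Hist1h4j was the one of these 11 that held a match to the 12-base core of the CTCF motif, while 19.9% of the 25632 such sites in the genome held one. The match lies at chr13:21826150-21826161 on the minus strand, 753 bp before the gene start and in no exon. It is printed with 20 bases each side (chr13:21826130-21826181, minus strand), the core in capitals, because CTCF is the factor at which cohesin is known to halt.
site by Hist1h4j: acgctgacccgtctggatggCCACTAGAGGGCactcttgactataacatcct
Another 5 sites near members were found in the other 8 RAD21 libraries but in neither control 1 nor block 1, and 0 of them held a core, against 0.494% of the 1012 such sites in the genome. A site without a match lacks only these letters.

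Outside the large cluster, RAD21 coverage in control 2 was near or above that of NIPBL at several genes. Hist2h2ab had RAD21 coverage of 565 and 2794 bp in control and 468 and 3189 bp in block, with NIPBL at 1699, 1894, 2232 and 2429 bp, so NIPBL lay between the RAD21 libraries. Hist2h4 had 378 and 2515 bp of RAD21 in control and 1114 and 639 bp of NIPBL. Hist2h2aa1, Hist2h2aa2 and Hist2h3c1 shared the NIPBL peak of highest mean fold in control cells, 18.1 and 14.4, with 23.1 and 18.9 in block, and Hist2h2aa1 and Hist2h2aa2 are near copies, so that peak is uncertain in place. Hist3h2a had RAD21 at 486 and 2632 bp and NIPBL at 2025 and 1197 bp in control. Hist3h2ba had RAD21 at 0 and 932 bp and NIPBL at 1050 and 597 bp. Hist4h4 had RAD21 at 281 and 1438 bp and NIPBL at 1881 and 1930 bp in control, without overlap. The strongest NIPBL peak by Hist2h3b and Hist2h2bb had a mean fold of 12.4 in control. Mean RAD21 folds there were 2.79 and 2.05, with an absent peak counted as 0. At Hist2h2ac and Hist2h2be, as at Hist2h2ab, these means were 9.52 for NIPBL and 7.35 for RAD21. Folds of both proteins come from separate lists. The mean RAD21 coverage in control was 1257 bp over the 9 Hist2 genes and 523 bp over the 55 Hist1 genes, while NIPBL means were 1780 and 1691 bp.

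**Figure D4:**
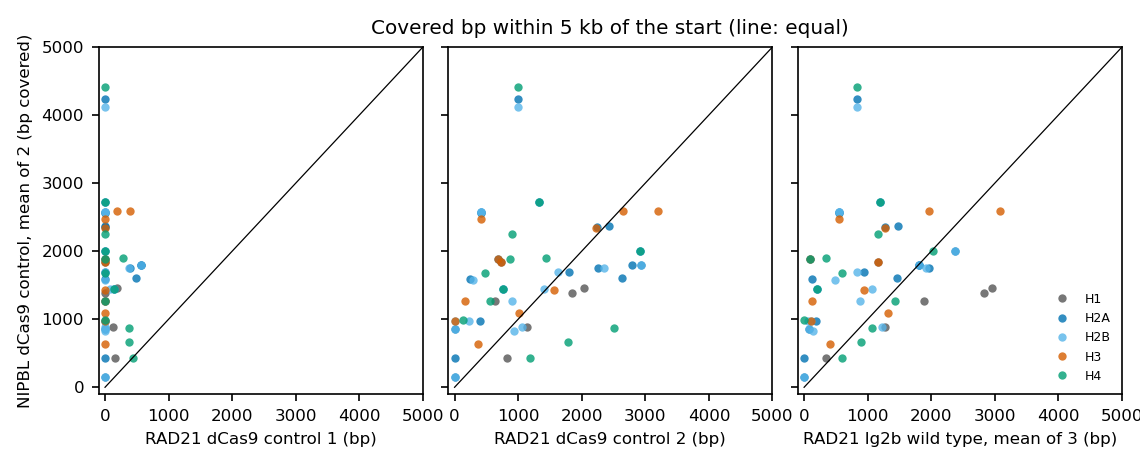
NIPBL coverage in dCas9 control (y axis, mean of 2 libraries, bp within 5 kb of the start) against RAD21 coverage (x axis, bp) in dCas9 control 1, control 2 and the mean of 3 Ig2b wild type libraries; each point is a histone gene, coloured by class, and the line marks equal values. All but 1 point lie on the NIPBL side against control 1, and points of both sides appear against control 2.

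In the dCas9 control lists NIPBL peaks covered more than RAD21 peaks at most histone genes, by an amount that depended on the RAD21 library. Lists of each protein were called separately and were not scaled, so a difference between proteins cannot be told apart from one between lists. NIPBL in both libraries exceeded RAD21 in both at 44 of 67 members (28.5% of all genes), and was below it in both at 0 (9.50%). With limma on log2 of covered bp plus 500, 65 members could be tested among 12017 genes, Hist1h2aa and Hist1h2ba being too thinly covered. NIPBL was higher at 19 of them at a Benjamini-Hochberg adjusted p under 0.05 (10.8% of genes tested) and lower at 0 (2.90%; unadjusted p under 0.05 in limma at 0 members). The median log2 difference was 1.12 over the members and 0.43 over all genes tested. The 19 were 6 of 19 H2A genes, 7 of 18 H2B, 3 of 11 H3, 3 of 13 H4 and 0 of 6 H1, they lay in 6 of the 19 stretches, and 0 lay outside Hist1.

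The largest differences in control cells were at Hist1h4m, Hist1h2ao and Hist1h2bq, with log2 values of 2.50, 2.45 and 2.41, but these 3 are repeated sequence. Among members under 90% repeated, Hist1h2bg, Hist1h2bf and Hist1h2ad, with 30.2%, 48.8% and 39.3% of their words repeated, were higher in NIPBL by 2.18 on the log2 scale, with SE 0.322 and adjusted p 0.0226 at Hist1h2bg by limma. NIPBL covered 2601 and 2551 bp at Hist1h2bg (chr13:23663265-23663882), and RAD21 covered 0 and 417 bp. The NIPBL libraries were close to each other there and far above both RAD21 libraries.

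The call depended on which libraries entered. It was 0 members, and 0 of all genes, by limma with only the 4 control libraries in the fit (27 at unadjusted p under 0.05) or without any 1 NIPBL library (22 to 26), and it was 51 without RAD21 control 2, where 32.0% of all genes tested were higher. With RAD21 control 1 and block 1 both left out, 29 members were higher (16.9% of all genes tested) and 5 lower (17.0%), the latter Hist1h4j (log2 -0.98), Hist1h4c (-0.85), Hist2h2ac and Hist2h2be (-0.58 each) and Hist2h4 (-1.15). The median was then 0.61 over the members and -0.01 over all genes. Without control 2 and block 2, 62 members were higher (61.1% of all genes) and 0 lower (4.12%), with medians of 1.82 and 0.90. Quantile normalization, which brought the all-gene median from 0.43 to 0.05 and the all-gene split from 1301 higher and 348 lower to 1482 and 1826, gave 34 members higher and 1 lower with a member median of 0.94.

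In block cells the order was the same. NIPBL exceeded RAD21 without overlap at 56 of 67 members (35.7% of all genes) and was below it at 1, Hist1h4c (10.7%). By limma, NIPBL was higher at 32 of 65 members (17.6% of genes tested) and lower at 0 (3.64%; 0 members at unadjusted p under 0.05), with a median log2 difference of 1.65 against 0.55 over all genes tested. The 32 included all 19 of the control cells and were 2 H1, 9 H2A, 9 H2B, 5 H3 and 7 H4 genes, with 1 outside Hist1, Hist2h2bb. Both comparisons come from one fit and share its estimate of the spread. RAD21 and NIPBL libraries did not spread alike. Mean coverage of members had an SD of 781 bp over the RAD21 control libraries and 49.4 bp over the NIPBL control libraries.

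The largest difference in block cells was at Hist1h2bg, with a log2 value of 2.80 (SE 0.322, limma adjusted p 0.0147), from NIPBL at 2989 and 3349 bp and RAD21 at 0 and 52 bp. Its partner Hist1h2ae followed with 2.79, from 2965 and 3332 bp against 0 and 52 bp, and Hist1h2ad and Hist1h2bf, another back-to-back pair, with 2.63. Hist1h4a, with NIPBL at 2845 and 2888 bp and RAD21 at 0 and 0 bp, had 2.75 (SE 0.458, adjusted p 0.0153). At these 5 genes both NIPBL libraries lay far above both RAD21 libraries, replicate 2 included. Leaving out 1 of the 4 block libraries left 0 members and 0 of all genes past the threshold by limma (27 to 42 members at unadjusted p under 0.05). Without control 1 and block 1 of RAD21, 46 members were higher (26.3% of all genes) and 1 lower (10.4%), Hist1h4c at -0.81, with a median of 1.13 over members and 0.28 over all genes. Quantile normalization gave 36 higher and 2 lower, with 1449 higher and 1685 lower over all genes in place of 2120 and 437.

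The stretch around Hist1h2bg, picked for the largest difference in block cells, is described base by base as an example. In NIPBL control 1, peaks ran from 713 to 238 bp before the Hist1h2bg start, on Hist1h2ae, with fold 11.6, and from 21 bp before to 455 bp after it, on Hist1h2bg, with fold 6.80. Further peaks ran from 2393 to 3516 bp, over Hist1h2bf and Hist1h2ad, with fold 10.6, and from 4326 to 4849 bp, on the start of Hist1h3d, with fold 14.1. The printed stretch of 175 bp between Hist1h2ae and Hist1h2bg, with its octamer and TATA box, was left largely bare: NIPBL peaks covered 21 and 18 bp of it in control and 0 bp in block 1, while in block 2 one peak spanned it whole. Such a bare gap was not general. Of 12 back-to-back pairs, the middle was inside a NIPBL peak at 7 and 6 in control and at 10 and 10 in block. RAD21 control 1 and block 1 had no peak in the stretch around Hist1h2bg. RAD21 control 2 had peaks of fold 3.31, 4.02 and 3.70 and block 2 of 4.29 and 3.24, and these lay at different positions in each list. All Ig2b RAD21 lists had peaks in this stretch too, of fold 3.13 to 4.20 and at positions that varied between lists. Ig2b deleted 2 had the most, among them one from 4269 to 5394 bp, over the start of Hist1h3d, with fold 3.92.

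**Figure D5:**
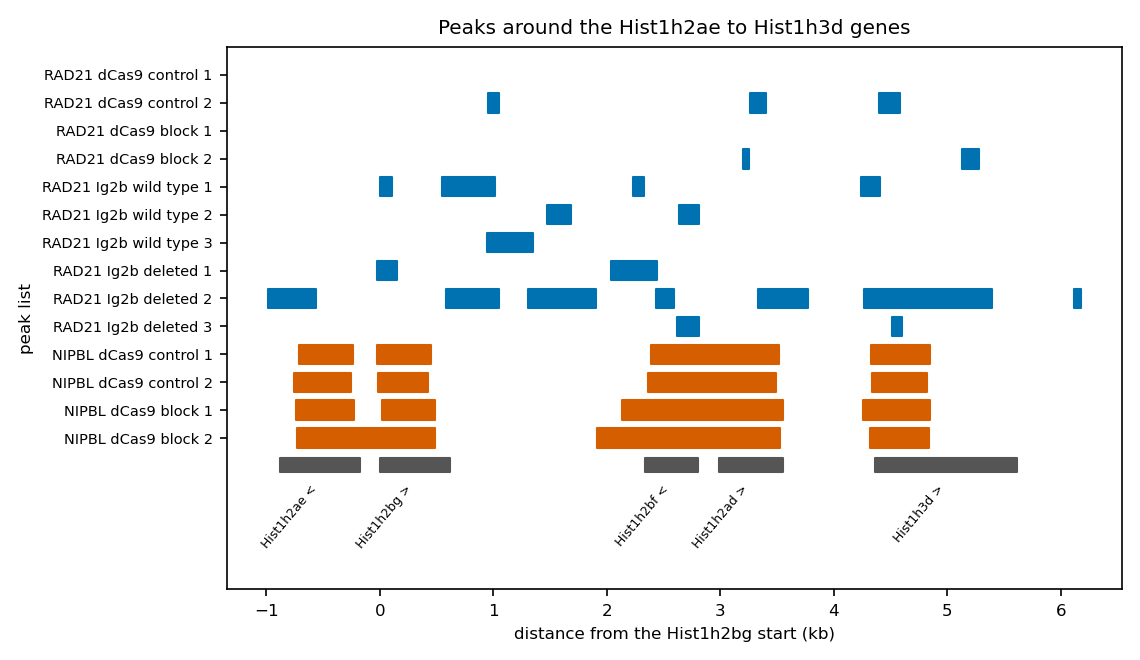
Called peaks (bars) of the 14 lists (y axis) by distance from the Hist1h2bg start (x axis, kb), with RAD21 in blue, NIPBL in orange and the genes in grey, arrowheads giving their direction. NIPBL bars lie over the genes at similar places in all 4 lists, with the gap between Hist1h2ae and Hist1h2bg bridged and a longer bar at Hist1h2bf in block 2, and RAD21 bars differ from list to list.

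Where RAD21 did have peaks they overlapped NIPBL in part. The windows of all members together span 315676 bp. RAD21 control 2 peaks covered 40.8% of the base pairs under NIPBL control 1 peaks, and NIPBL control 1 covered 52.6% of those under RAD21 control 2. RAD21 control 1 covered 1.84% of NIPBL control 1. The Ig2b wild type lists covered 20.9%, 34.3% and 16.4% of it, and the deleted lists 44.5%, 60.5% and 23.0%.

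With the guide RNA, no histone gene passed the test for RAD21 or for NIPBL. By limma 0 members were higher (0% of genes tested) and 0 lower (0%) for RAD21 in block against control, with 0 members and 44 genes in all at an unadjusted p under 0.05. For NIPBL in block against control 0 were higher (0%) and 0 lower (0%), with 0 members and 206 genes at an unadjusted p under 0.05. For the difference between both cell kinds in NIPBL minus RAD21, 0 were higher (0%) and 0 lower (0%), with 0 members and 60 genes at an unadjusted p under 0.05 in limma. For RAD21 the median member log2 difference was -0.05, against 0.05 over all genes tested, and it was -0.80 without control 1 and 0.56 without control 2. RAD21 coverage was without overlap higher in block at 0 members (3.70%) and lower at 0 (1.01%), and a peak was gained at 0 (0.353%) or lost at 0 (0.0940%). For NIPBL the median was 0.23, against 0.16 over all genes, and 48 members were higher in both block libraries than in both controls (26.8%) and 0 lower (4.17%). With quantile normalization the NIPBL medians were -0.02 for members and for all genes alike. NIPBL peaks were gained at 0 members (1.54%) and lost at 0 (1.17%). The difference of the contrasts had a median of 0.36 over members and 0.12 over all genes, and over members it ranged from -0.32 without RAD21 control 2 to 1.04 without RAD21 control 1, being -0.09 without block 1 and 0.69 without block 2. Over all genes these 4 values were -0.26, 0.50, -0.11 and 0.36.

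The Ig2b deletion likewise gave no call at a histone gene. Of 58 members among 6707 genes tested by limma, 0 were higher (0%) and 0 lower (0%) at an adjusted p under 0.05, and 3 were higher at an unadjusted p under 0.05: Hist3h2ba, Hist1h2an and Hist1h2bp, all with adjusted p 0.500. Those 3 are 5.17% of the members tested, while 9.36% of all genes tested were higher at that unadjusted level. The median log2 difference was 0.47 over members and 0.25 over all genes tested, and 0.08 and -0.04 with quantile normalization. At Hist1h2an RAD21 covered 870, 1148 and 826 bp in wild type and 2660, 2970 and 1407 bp in deleted cells, which do not overlap. Groups did not overlap at 5 members, all higher in deleted cells (5.91%), and at 0 lower (0.228%), the others being Hist3h2ba, Hist1h2bp, Hist1h2bk and Hist2h2bb. Peaks were gained at 0 members (0.676%) and lost at 0 (0.0224%). Deleted 2, the longest of these lists with 25.1 Mb covered, had the highest mean coverage at members, and without it the median was 0.18.

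Genes that work with the histone genes had NIPBL too, at lower coverage. All 16 genes of histone transcription and message processing had a NIPBL peak in all 4 libraries (51.7% of all genes). A RAD21 peak in all 3 Ig2b wild type libraries was found at 7 of the 16 (27.3%). Npat, the activator of histone genes, had NIPBL at 1049, 933, 1292 and 1283 bp and RAD21 at 0 and 222 bp in control and 0 and 464 bp in block. Slbp, the stem-loop binding protein, had NIPBL at 1233, 1086, 1141 and 1922 bp and RAD21 at 295, 881, 305 and 1134 bp. NIPBL was above RAD21 without overlap at Npat in control and block. All 20 genes of S phase entry and replication had NIPBL in all 4 libraries, among them Mcm2, a subunit of the replicative helicase, with 1312, 1025, 1426 and 1893 bp. By limma NIPBL was higher than RAD21 at 1 and 3 of the 16 processing genes in control and block. It was higher at 4 and 7 of the 20 S phase genes, and at 10.8% and 17.6% of all genes tested.

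Variant histone genes, made outside S phase, were found for 10 of 11 symbols. Of these, 9 had NIPBL in all 4 libraries (51.7% of all genes) and 5 had RAD21 in all 3 Ig2b wild type libraries (27.3%). H2afz, which encodes H2A.Z, had 2013, 2222, 2294 and 2384 bp of NIPBL. Mean NIPBL coverage in control was 1692 bp over the replication-dependent genes, 1192 bp over the variants, 908 bp over S phase genes, 768 bp over processing genes and 457 bp over all genes. The 73 other protein-coding genes in or within 100 kb of the clusters had a mean of 228 bp. Of them, 20 had NIPBL in all 4 libraries (51.7% of all genes). The lists are not wholly separate. H2afj is both a variant and a neighbour and lies close to Hist4h4, with the same NIPBL coverage of 1881 and 1930 bp in control. These means describe the lists of genes and were not tested against each other.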

How the data were processed

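The 14 immunoprecipitated libraries each had 1 list of broad peaks, and the inputs (4) were left aside. Groups came from the sample labels. The submitters' processing notes name mm9, Bowtie2 2.2.8, SAMtools 1.8 and MACS2, for which version and settings are not given in the sources used here. Each list has 9 columns and no header and was called on 1 library. The fold of a peak is a ratio, its enrichment over the background estimated by the caller, as the authors deposited it. It was used to rank peaks within a list. The authors' lists also give −log10 p and −log10 q per peak, of which −log10 q served in an alternative. In the deposited lists the peak names say that dCas9 libraries were called with a control library, while the Ig2b names give no control and state removal of duplicates. Read depth is unknown, so no interval that rests on it is given.

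Gene starts came from the mm9 (NCBIM37) annotation. Covered length counts each base under a called peak once, within 5 kb each side of a start. Genes whose covered length averaged 200 bp or more in a fit were tested on log2 of that length plus 500 by limma 3.58.1 under R 4.3.3 (moderated, two-sided; Benjamini-Hochberg over all genes tested, adjusted p under 0.05), without scaling between lists. A log2 difference on this scale understates changes at genes with little coverage. The 8 dCas9 libraries shared one fit and the 6 Ig2b libraries another. The code was tested on simulated data with a known change, in which replicates spread less than the RAD21 dCas9 libraries do. That test does not bear on how reliable the calls here are. Other steps used Python 3.11.15 with pandas 2.3.3, numpy 2.4.6 and matplotlib 3.10.9. Promoter motifs were searched in the mm9 genome on both strands, and stem-loops on the strand of the gene only. A gene's repeated share is the share of its 31-base words found elsewhere in the genome.

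The members and the gene lists were chosen with earlier results of these data known. Members named with values were the 5 of highest mean fold per protein in control, the most and least NIPBL-covered of each class, up to 5 called per direction, those outside Hist1, and the testis genes. Hist1h1b as a RAD21 example, Hist1h3d, Hist1h2al, the promoters, the members listed by name after a count, and the Npat, Slbp, Mcm2 and H2afz values were picked after their values were seen. Alternatives were 100 bp added, quantile normalization, lists matched in length, −log10 q of at least 3, windows of 2 and 10 kb, no or a stricter filter, only the libraries compared, the replicate number as a block, and each library left out. Leaving out both RAD21 dCas9 libraries with one number, and not counting members of repeated sequence, were added after seeing the data.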

Additional observations from a re-analysis of the deposited data

How the results depend on the processing

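Read depth and the settings of peak calling limit every value here, since only called peaks could be compared. The log2 differences named above were picked as the largest called ones, and several share peaks. They do not speak for the other members. The 10 named log2 differences kept their sign in all 190 recomputed values and stayed past the threshold in 142. Of 132 recomputed values of the 9 counts, 106 were within 1.5 times the reported count. For NIPBL over RAD21 in control, limma called 12.3% of all genes tested higher and 15.2% lower with quantile normalization. These shares were 27.2% and 6.83% with lists matched in length and 31.2% and 10.2% with −log10 q of at least 3. Both were 0% with only the libraries compared. Of members, limma called 35, 33, 50 and 0 in these settings, in that order. It called 34 without both RAD21 dCas9 libraries numbered 1, 62 without both numbered 2, and 0 to 51 with each library left out in turn, while all-gene calls moved too, from 1649 to 4113, 7717, and 0 to 4150. In block it called 17 with 100 bp added, 56 with −log10 q of at least 3, 62 without both RAD21 libraries numbered 2, and 0 to 41 with each library left out, with all-gene calls of 7571 and 0 to 4261 in the last pair of settings against 2557. Over all genes tested in block, 12.0% were higher with 100 bp added and 41.3% with −log10 q of at least 3. The settings with both RAD21 libraries of a number left out were chosen after seeing the data. With −log10 q of at least 3, NIPBL was higher in block than in control at 1 of 65 members tested and 0.88% of all genes tested. The member was Hist2h2bb (log2 0.96, limma adjusted p 0.0462). At that setting RAD21 was higher in Ig2b deleted than in wild type cells at 3 of 25 members tested, against 1.09% of all genes tested. They were Hist1h4k (log2 2.15) and the back-to-back pair Hist1h2ak and Hist1h2bn (2.33 each). The windows of these 3 members overlap, so they are not separate results. A RAD21 peak was then in both controls at 12 members and in all 3 Ig2b wild type libraries at 9. The shares over all genes were not computed for these counts. RAD21 in both controls was at 39 members with windows of 10 kb each side and at 19 to 60 with one control library left out. Causes of these changes were not tested. With the replicate number as a block, limma called 20 members in control, 35 in block and 0 in the other comparisons. The shares of all genes tested that were higher were 8.80%, 18.2% and 0%. The labels do not say that numbers pair libraries. Deviations of same-numbered libraries correlated at 0.724 between RAD21 control and block, -0.0447 between NIPBL control and block, -0.111 to 0.0321 between RAD21 and NIPBL, and 0.0189, 0.222 and 0.258 in the Ig2b pairs. Not counting members of repeated sequence left 16 called in control and 29 in block. Where a group was left with 1 library, its spread was assumed to be that of the others.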
